A study of Mus musculus with 8 samples.

Results

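The genes described here are 10 members of the BCL2 family, the proteins that decide whether the mitochondrial outer membrane is opened during apoptosis: Bcl2, Bcl2l1, Mcl1, Bax, Bak1, Bcl2l11, Bbc3, Pmaip1, Bid and Bad. They were chosen by name, as all probes whose annotated gene is one of the 10, among 16330 genes measured on 8 arrays. Together they have 19 probes, 6 genes with several and 4 with 1, and all 19 were well above background on all 8 arrays.

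The arrays measured c-Kit+ fetal liver cells of Ebf1-/- C57Bl/6 mice, enriched with magnetic beads and plated on OP9 stromal feeder cells. The medium held 5 ng/ml IL-7, 10 ng/ml Flt3 ligand, 10 ng/ml stem cell factor and 4% FCS. The cells received pMys-EBF1-H240A-IRES-GFP (EBF1-H240A, 3 arrays), pMys-EBF1wt-IRES-GFP (EBF1wt, 3 arrays) or the pMys-IRES-GFP vector without EBF1 (Empty, 2 arrays), and GFP+ cells were sorted 36 h later. EBF1 is a transcription factor needed for B-lineage specification, and H240A names a histidine-to-alanine form of it. By the labels all 3 groups are Ebf1-/- and EBF1 was supplied by a retroviral vector, in cells plated on a feeder layer and in lymphoid cytokines. The labels do not say whether replicates came from separate animals or cultures, so the p-values cover only how far these arrays vary, and that variation may be technical.

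BCL2 family proteins fall into 3 roles. Bcl2, Bcl2l1 (BCL-xL) and Mcl1 encode anti-apoptotic proteins that bind and hold their pro-apoptotic relatives; Bax and Bak1 encode the effectors that form pores in the outer membrane and release cytochrome c. Bcl2l11 (BIM), Bbc3 (PUMA), Pmaip1 (NOXA), Bid and Bad encode BH3-only proteins, which sense stress or loss of cytokine and either block the anti-apoptotic proteins or activate the effectors. Lymphoid progenitors depend on this balance, since IL-7 signalling keeps them alive in part through BCL2 and MCL1.

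Levels are given as log2 scaled intensity, the background-subtracted spot signal scaled so that the 75th percentile is the same on every array. A level can be compared between arrays for 1 probe, not between probes. Between 54.8% and 59.8% of the spots of an array were well above background, no spot was saturated, and arrays of 1 group correlated at 0.991 to 0.995 over all genes. The Ebf1 probe read between 10.11 and 10.44 on all arrays, so it does not check the labels: the signal in Empty, at 10.11 and 10.19, overlapped with that of cells given EBF1. Ptprc (CD45), which marks blood cells, was well above background everywhere. Of the marker genes of other cell types, the summed intensity of 13 stromal genes was 2350 to 2450 in EBF1-H240A, 1860 to 2140 in EBF1wt and 893 to 950 in Empty, with 7 and 6 of 11 measured genes higher in EBF1-H240A and EBF1wt than in Empty. Lum and Postn, also on that list, were not well above background on any array. The 8 hepatocyte genes summed to 60.1 to 70.2, 166 to 199 and 530 to 542 in EBF1-H240A, EBF1wt and Empty, and Ahsg was the only one of them well above background on any array. The 6 erythroid genes summed to 758 to 775, 979 to 1090 and 8340 to 9290 in the same order, with Klf1 not well above background on any array. For 7 myeloid and mast cell genes the sums were 26500 to 35800, 16100 to 22200 and 18300 to 22600, with 2 higher and 3 lower of the 5 measured genes in EBF1-H240A, and 1 higher and 3 lower in EBF1wt. Csf1r, a macrophage receptor gene, was higher by 2.0 and 1.42 and Cpa3, a mast cell protease gene, was lower at -3.74 and -3.52. Of the other measured genes of this list, Itgam gave -1.45 and -1.66, Mpo -1.49 and -2.95, and Lyz2 0.68 and -0.04. The myeloid genes therefore did not move together. Of the 5 progenitor genes, which summed to 22000 to 23000, 18500 to 19900 and 34400 to 36200, 4 were lower in EBF1-H240A, and 3 lower and 1 higher in EBF1wt. Flt3 was the gene that differed in direction, at -0.32 (adjusted p = 0.0376) in EBF1-H240A and 0.34 (adjusted p = 0.0357) in EBF1wt. Larger differences in the same order were -1.45 and -1.09 for Il7r and -1.14 and -0.79 for Kit. Cd34, the brightest of the 5 in Empty at 14.03, gave -1.17 and -1.93, and Ptprc did not pass. The sums add linear intensities, so the brightest genes of a list weigh most in them. Brightest of the measured stromal genes was Pdgfrb, averaging 10.59, 10.18 and 8.64 on the log2 scale in EBF1-H240A, EBF1wt and Empty. Among erythroid genes it was Hbb-bt, at 9.51, 9.96 and 13.1, and among myeloid genes Lyz2, at 14.85, 14.13 and 14.17. A sum can therefore follow 1 gene and does not by itself measure a cell type. The part of these marker shifts in the results below was not tested. In bulk samples, fewer cells of a type and less RNA per cell cannot be told apart.

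The designed 60-base probes below are shown because they read coding sequence of the anti-apoptotic, effector and BH3-only roles, each with at least 1 reading frame free of stop codons. The Bcl2 and Bak1 probes lie in the stretch that codes for the BH1 homology region, the Bcl2l1 probe between the BH1 and BH2 regions, the Bax probe ahead of BH3, and the Bcl2l11 probe at the end of its BH3 region. By the array annotation (mm9) they lie at chr1:108608970-108609029 (minus strand), chr17:27158232-27158291 (minus), chr2:152655185-152655244 (minus), chr7:52721469-52721624 (minus) and chr2:127972893-127983988 (plus), in the same order of genes. The Bax and Bcl2l11 probes span 156 and 11096 bases of genome and so cross an intron. All sequences are written 5′ to 3′.
Bcl2 probe: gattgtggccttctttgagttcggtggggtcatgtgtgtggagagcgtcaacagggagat
Bak1 probe: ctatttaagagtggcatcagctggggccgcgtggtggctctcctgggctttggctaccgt
Bcl2l1 probe: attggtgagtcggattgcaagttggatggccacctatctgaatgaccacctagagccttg
Bax probe: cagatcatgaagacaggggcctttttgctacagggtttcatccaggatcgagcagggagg
Bcl2l11 probe: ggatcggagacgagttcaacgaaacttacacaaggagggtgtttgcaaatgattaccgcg

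Of the 10 genes, 7 differed between EBF1-H240A and Empty and 5 between EBF1wt and Empty, at a limma adjusted p under 0.05. Bcl2 was the gene that moved most, 2.85-fold lower in EBF1-H240A and 2.5-fold lower in EBF1wt, while Bcl2l1 rose 1.35-fold and 1.55-fold. Pmaip1, Bid and Bax were also lower with either protein. In EBF1-H240A minus Empty, 3 genes were higher, 4 lower and 3 did not pass, against a background of 44.6% of all genes called (21.6% higher and 23.0% lower). In EBF1wt minus Empty, 1 was higher, 4 lower and 5 did not pass, against 38.4% of all genes (17.2% higher and 21.2% lower). Beside backgrounds this high and with only 10 genes, the counts show nothing particular to the family. The median difference of the 10 was -0.09 and -0.05 on the log2 scale, beside -0.002 and -0.036 over all genes. The groups did not overlap for 8 and 5 of the 10, where 65.5% and 61.2% of all genes did not. These comparisons share the Empty arrays, so that their values are given side by side and are not independent.

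**Figure D1:**
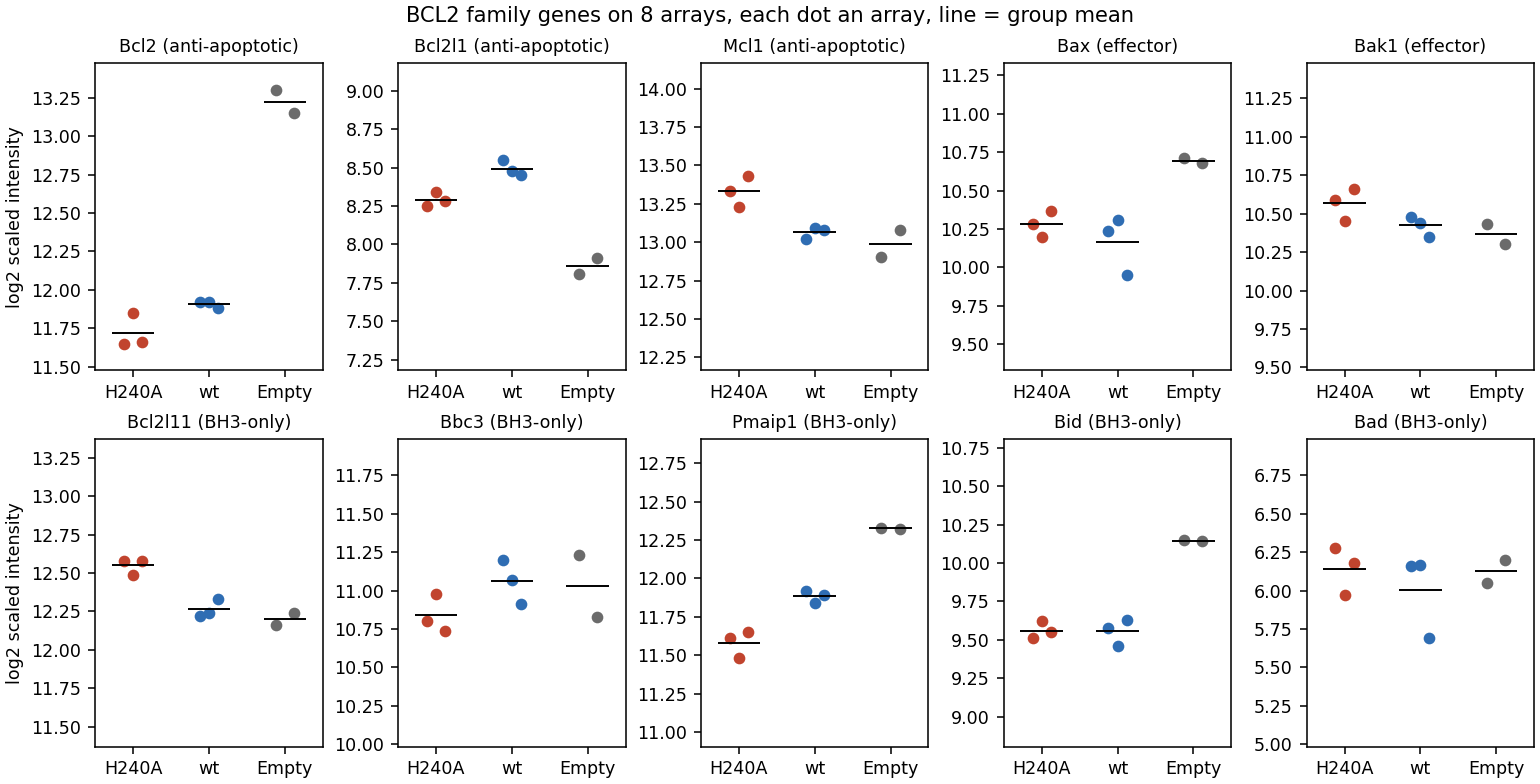
Log2 scaled intensity (y axis, which spans at least 2 log2 units in each panel) of the 10 genes in EBF1-H240A, EBF1wt and Empty (x axis), each dot an array and each line a group mean. Bcl2 stands at 11.65 to 11.85, 11.88 to 11.92 and 13.15 to 13.30 in these groups, and Bcl2l1 runs the other way against Empty.

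**Figure D2:**
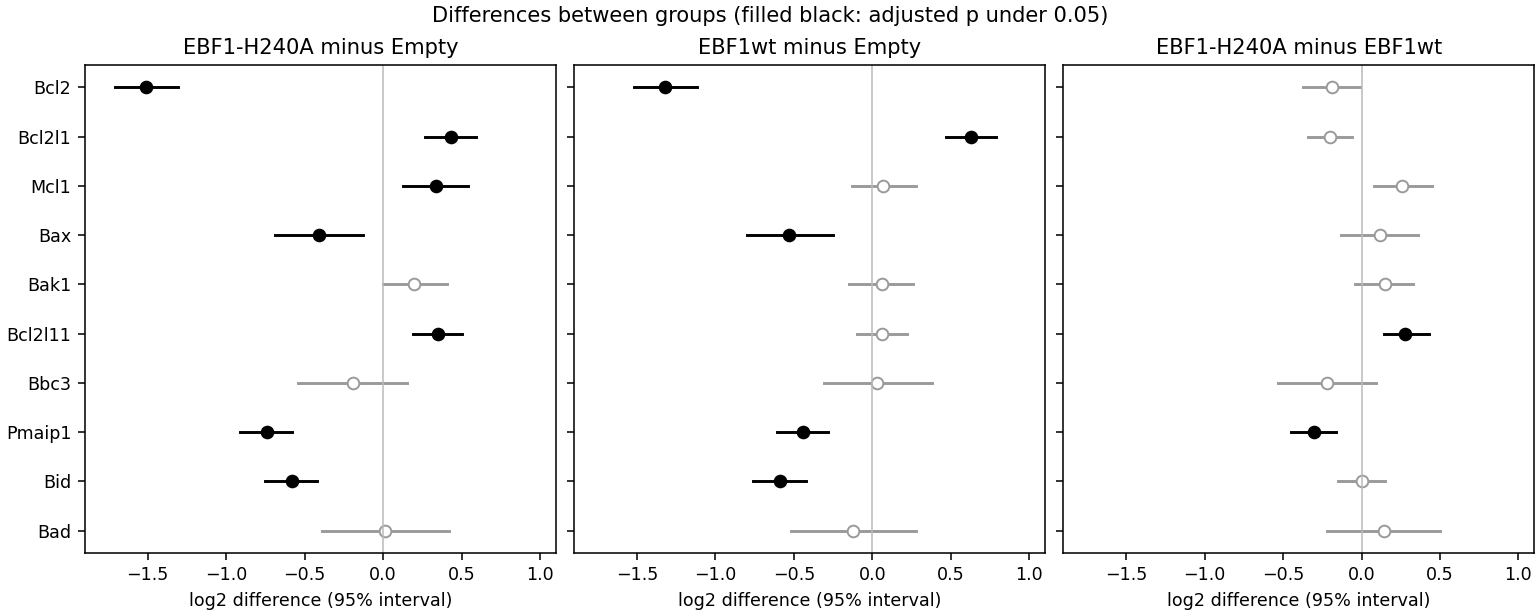
Log2 difference (x axis) of each gene (y axis) in the 3 comparisons, with 95% intervals from limma; filled black points have an adjusted p under 0.05. Bcl2 lies farthest from 0, at -1.51 in EBF1-H240A minus Empty and -1.32 in EBF1wt minus Empty, and 2 genes are filled in EBF1-H240A minus EBF1wt.

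Bcl2, the founding anti-apoptotic gene of the family, is read by its brightest probe at chr1:108434793-108434852 (mm9, minus strand). Its levels were 11.65, 11.85 and 11.66 in EBF1-H240A, 11.92, 11.92 and 11.88 in EBF1wt, and 13.30 and 13.15 in Empty. Both Empty arrays stood far above all 6 others, and the groups did not overlap. The difference from Empty was -1.51 ± 0.08 (SE, adjusted p = 2.66e-05) in EBF1-H240A and -1.32 ± 0.08 (adjusted p = 6.03e-05) in EBF1wt. The probe is printed in 10 spots per array, with a spot SD of 0.038 to 0.071 within an array, which covers the technical spread of spots only. The BH1 probe shown above gave 10.23, 10.17 and 10.14 in EBF1-H240A, 10.42, 10.21 and 10.35 in EBF1wt, and 11.67 and 11.79 in Empty. Its differences from Empty were -1.55 and -1.40, and those of the third probe, annotated to another transcript, were -1.58 and -1.59. All 3 probes therefore gave a lower level with either protein. The arrays sat on 2 slides. Slide 1 held Empty 1, EBF1wt 2, EBF1-H240A 1 and EBF1-H240A 2, and slide 2 held Empty 2, EBF1wt 1, EBF1wt 3 and EBF1-H240A 3. Each difference within a slide, here and below, therefore rests on 1 Empty array and on 1 or 2 arrays of the other group. The brightest probe's difference was -1.56 and -1.5 on the 2 slides in EBF1-H240A, and -1.38 and -1.25 in EBF1wt.

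Bcl2l1, whose long product BCL-xL protects cells in the same way as BCL2, moved the other way. Levels at chr2:152606631-152606690 (mm9, minus strand) were 8.25, 8.34 and 8.28 in EBF1-H240A, 8.55, 8.48 and 8.45 in EBF1wt, and 7.81 and 7.91 in Empty. The Empty arrays were the lowest, the EBF1wt arrays the highest, and no groups overlapped. It rose by 0.43 ± 0.07 in EBF1-H240A (adjusted p = 0.00213) and by 0.63 ± 0.07 in EBF1wt (adjusted p = 0.000506). The repeated spots had an SD of 0.045 to 0.11. Its second probe, shown above, gave 0.55 and 0.66 and the third 0.69 and 0.76, all 4 values with an adjusted p under 0.05 and at most 0.00657. Within slides the brightest probe gave 0.49 and 0.37 in EBF1-H240A, and 0.67 and 0.59 in EBF1wt.

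Mcl1, a short-lived anti-apoptotic protein, was read at chr3:95466855-95466914 (mm9, plus strand). Its levels were 13.33, 13.23 and 13.43 in EBF1-H240A, 13.02, 13.09 and 13.08 in EBF1wt, and 12.90 and 13.08 in Empty. The EBF1-H240A arrays were the 3 highest, while EBF1wt and Empty overlapped. The difference from Empty was 0.34 ± 0.09 in EBF1-H240A (adjusted p = 0.0179) and 0.07 ± 0.09 in EBF1wt (adjusted p = 0.558). Without Empty 1 the EBF1-H240A difference was 0.25, with an adjusted p of 0.111. The second Mcl1 probe gave 0.36 (adjusted p = 0.0637) and 0.21 (adjusted p = 0.258), so that its call in EBF1-H240A rests on the brighter probe.

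**Figure D3:**
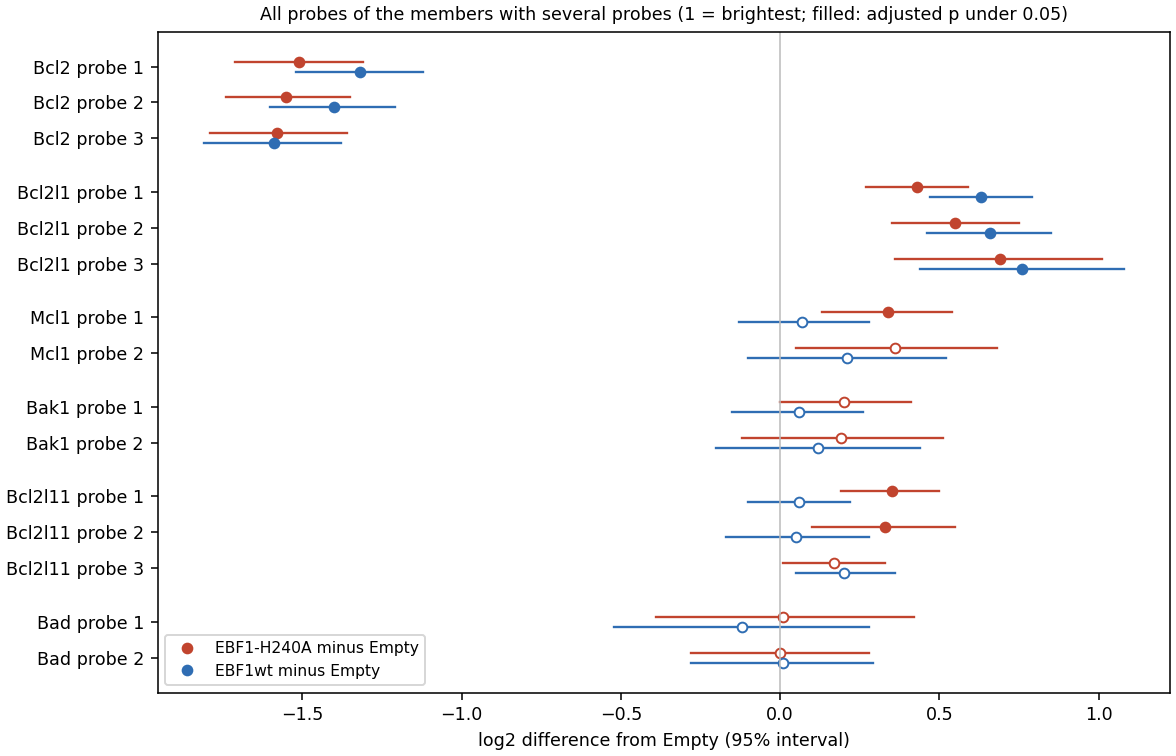
Log2 difference from Empty (x axis, with 95% intervals) of every probe of the 6 genes with several probes (y axis, probe 1 the brightest), for EBF1-H240A (red) and EBF1wt (blue); filled points have an adjusted p under 0.05. The 3 Bcl2 probes lie between -1.59 and -1.32, the 3 Bcl2l1 probes between 0.43 and 0.76.

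Bax, the effector that moves from the cytosol to mitochondria, was lower with either protein. Its levels, read by the probe shown above, were 10.28, 10.20 and 10.37 in EBF1-H240A, 10.24, 10.31 and 9.95 in EBF1wt, and 10.71 and 10.68 in Empty. Both Empty arrays exceeded all others and EBF1wt 3 was the lowest. The differences from Empty were -0.41 ± 0.12 in EBF1-H240A (adjusted p = 0.0271) and -0.53 ± 0.12 in EBF1wt (adjusted p = 0.0121). The spot SD of 0.039 to 0.071 was smaller than the distance of EBF1wt 3 from the 2 other EBF1wt arrays. Bax kept its sign but lost its call when either Empty array was left out, with adjusted p values of 0.11 and 0.0947 in EBF1-H240A and 0.0654 and 0.0553 in EBF1wt for Empty 1 and Empty 2. The EBF1-H240A call was also lost without EBF1-H240A 1 or 2, with adjusted p values of 0.0663 and 0.0733. Within slides its differences were -0.47 and -0.31 in EBF1-H240A and -0.39 and -0.58 in EBF1wt.

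Bak1, the effector that resides in the outer membrane, did not pass the test. Its brightest probe, at chr17:27156967-27157026 (mm9, minus strand), gave 10.59, 10.45 and 10.66 in EBF1-H240A, 10.48, 10.44 and 10.35 in EBF1wt, and 10.43 and 10.30 in Empty. All EBF1-H240A arrays were above both Empty arrays, whereas EBF1wt overlapped with each of the others. The differences from Empty were 0.20 (95% interval -0.00 to 0.41, adjusted p = 0.1) and 0.06 (-0.15 to 0.26, adjusted p = 0.649). The probe shown above gave 0.19 and 0.12, also without passing.

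**Figure D4:**
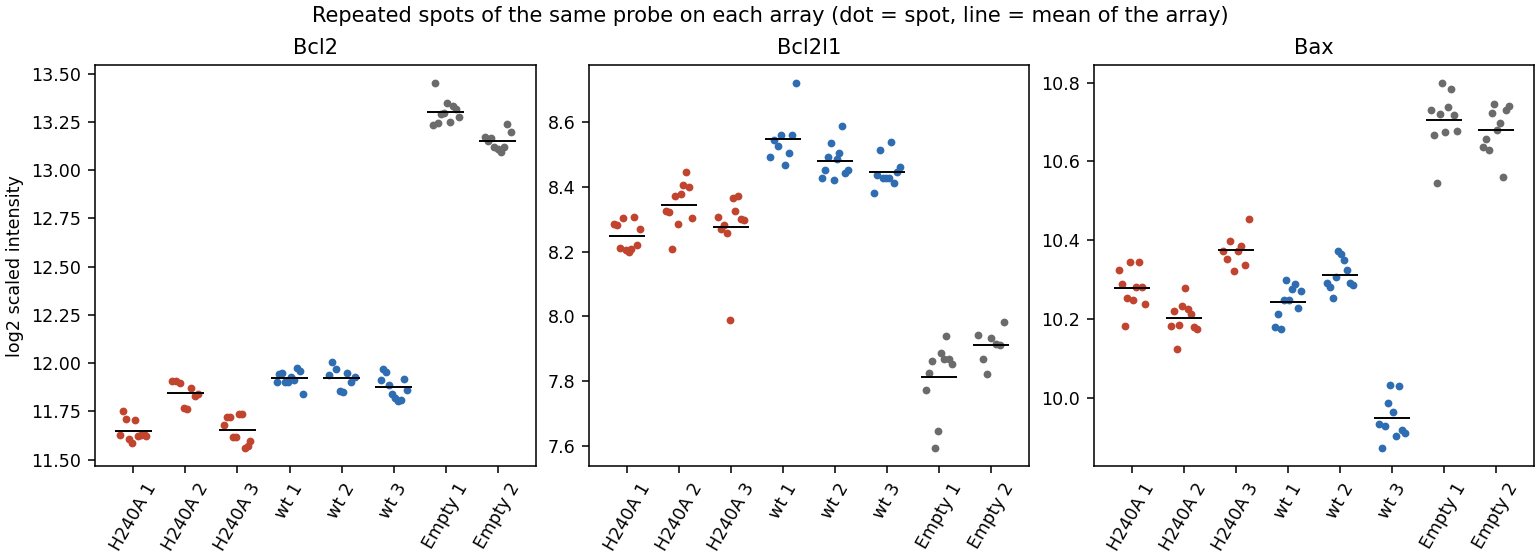
Log2 scaled intensity (y axis) of the repeated spots of the Bcl2, Bcl2l1 and Bax probes on each array (x axis), each dot a spot and each line the mean of the array. The spots of an array lie close together beside the gap between Empty and the other arrays for Bcl2, and EBF1wt 3 stands apart at 9.95 for Bax.

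Bcl2l11 encodes BIM, the BH3-only protein that kills lymphocytes deprived of cytokine. At chr2:127988051-127988110 (mm9, plus strand) its levels were 12.58, 12.49 and 12.58 in EBF1-H240A, 12.22, 12.24 and 12.33 in EBF1wt, and 12.16 and 12.24 in Empty. The 3 EBF1-H240A arrays were above all others, and EBF1wt and Empty overlapped. It was higher than in Empty by 0.35 ± 0.07 in EBF1-H240A (adjusted p = 0.00536), and differed by 0.06 ± 0.07 in EBF1wt (adjusted p = 0.51). The BH3 probe shown above gave 0.33 (adjusted p = 0.0287) and 0.05. The third probe, annotated to another transcript variant at chr2:127954736-127955417, gave 0.17 (adjusted p = 0.084) in EBF1-H240A and 0.20 (adjusted p = 0.0504) in EBF1wt. For that probe neither difference passed, in contrast to the 2 other probes in EBF1-H240A. Within slides the brightest probe gave 0.37 and 0.34 in EBF1-H240A.

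Bbc3 encodes PUMA, a p53 target that binds all anti-apoptotic members. Its probe, at chr7:16903403-16903462 (mm9, plus strand), gave 10.80, 10.98 and 10.74 in EBF1-H240A, 11.20, 11.07 and 10.91 in EBF1wt, and 11.23 and 10.83 in Empty. The groups overlapped, and the 2 Empty arrays lay apart from each other. Neither difference from Empty passed, at -0.19 (95% interval -0.54 to 0.15) in EBF1-H240A and 0.03 (-0.31 to 0.38) in EBF1wt.

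Pmaip1 encodes NOXA, which binds MCL1 and is another p53 target. It was read by 1 probe and had levels of 11.61, 11.48 and 11.65 in EBF1-H240A, 11.92, 11.84 and 11.89 in EBF1wt, and 12.33 and 12.32 in Empty. The 3 groups did not overlap, with EBF1-H240A lowest and Empty highest. On the log2 scale its level fell by 0.74 in EBF1-H240A (SE 0.07, 1.67-fold, adjusted p = 0.000237) and fell by 0.44 in EBF1wt (SE 0.07, 1.36-fold, adjusted p = 0.00278). The slides gave -0.78 and -0.67 in EBF1-H240A and -0.49 and -0.41 in EBF1wt.

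Bid links death receptors to mitochondria, since caspase-8 cleaves its protein into the active form. It was read at chr6:120843464-120843523 (mm9, minus strand), with 9.51, 9.62 and 9.55 in EBF1-H240A, 9.58, 9.46 and 9.63 in EBF1wt, and 10.15 and 10.14 in Empty. Both Empty arrays were above all others, and EBF1-H240A and EBF1wt overlapped. The differences from Empty were -0.58 ± 0.07 in EBF1-H240A (adjusted p = 0.000774) and -0.59 ± 0.07 in EBF1wt (adjusted p = 0.000961). The slides gave -0.58 and -0.59 in EBF1-H240A and -0.68 and -0.54 in EBF1wt.

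Bad encodes a BH3-only protein that growth factor signalling holds inactive by phosphorylation. Its brighter probe, at chr19:7025594-7025653 (mm9, minus strand), gave 6.28, 5.97 and 6.18 in EBF1-H240A, 6.16, 6.17 and 5.69 in EBF1wt, and 6.05 and 6.20 in Empty. The groups overlapped, with EBF1wt 3 the lowest array, as it was for Bax. The differences from Empty were 0.01 (95% interval -0.39 to 0.42) in EBF1-H240A and -0.12 (-0.52 to 0.28) in EBF1wt. This probe is annotated to the minus strand, and the second Bad probe, at chr19:7016618-7016677 on the plus strand, gave 0.00 and 0.01. The brighter probe may therefore read a transcript other than Bad mRNA, and neither of the 2 passed.

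The direct comparison of EBF1-H240A with EBF1wt called 2 of the 10 genes, 1 higher and 1 lower, against 6.36% of all genes (3.64% higher and 2.73% lower). Bcl2l11 was higher in EBF1-H240A by 0.28 ± 0.06 (adjusted p = 0.0394), and Pmaip1 was lower by a log2 difference of -0.30 ± 0.06 (adjusted p = 0.037). The 2 other Bcl2l11 probes gave 0.27 (adjusted p = 0.119) and -0.04 (adjusted p = 0.778) and did not pass. Neither call held when any 1 of the 8 arrays was left out, with adjusted p values of 0.0543 to 0.132 for Bcl2l11 and 0.0647 to 0.126 for Pmaip1, although both kept their sign. With the slide as a block the values were 0.30 (adjusted p = 0.0659) for Bcl2l11 and -0.28 (adjusted p = 0.0793) for Pmaip1. The groups did not overlap for 5 of the 10 genes, where 29.9% of all genes did not: Bcl2, Bcl2l1, Mcl1, Bcl2l11 and Pmaip1. The 3 of these that did not pass differed by -0.19 (95% interval -0.37 to -0.01) for Bcl2, -0.20 (-0.34 to -0.06) for Bcl2l1 and 0.26 (0.08 to 0.45) for Mcl1. Bid differed by 0.00 (-0.15 to 0.15) and Bax by 0.12 (-0.13 to 0.36).

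Of 16 other genes of the family on a list, 11 were measured and 5 were not tested (Bcl2a1a, Bcl2a1d, Bcl2l10, Bok and Hrk). With either protein, 3 were higher than in Empty and 1 lower, and 7 did not pass. These 4 of 11 stand beside 44.6% of all genes called in EBF1-H240A and 38.4% in EBF1wt, and the median differences were 0.02 and 0.16. Bcl2l15 was higher with either protein, with 7.17, 6.69 and 7.33 in EBF1-H240A, 5.70, 5.74 and 5.94 in EBF1wt, and 2.45 and 2.37 in Empty. No groups overlapped, and in Empty the probe was well above background on 1 of the 2 arrays. It was kept for the test through the groups where it is high, and its Empty level lies near background, so the sizes of its differences from Empty are uncertain. The fitted differences were 4.65 (adjusted p = 6.99e-06) in EBF1-H240A and 3.38 (adjusted p = 3e-05) in EBF1wt. EBF1-H240A was 1.27 above EBF1wt (adjusted p = 0.00956), with all 6 arrays well above background. Bcl2l14 ran the other way, with 5.32, 5.37 and 5.34 in EBF1-H240A, 5.55, 5.78 and 5.74 in EBF1wt, and 7.24 and 7.29 in Empty. The groups did not overlap here either. Its differences from Empty were -1.92 (adjusted p = 8.16e-06) and -1.57 (adjusted p = 2.23e-05), and its second probe gave -1.84 and -1.48. Bcl2l14 was also lower in EBF1-H240A than in EBF1wt, at -0.35 (adjusted p = 0.0371), a call lost without any 1 array other than EBF1wt 1 (adjusted p up to 0.118).

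Bmf, a BH3-only gene tied to the cytoskeleton, had levels of 11.02, 11.03 and 10.96 in EBF1-H240A, 11.22, 11.14 and 11.17 in EBF1wt, and 10.19 and 10.04 in Empty. Empty was lowest and the 3 groups did not overlap. Its differences from Empty were 0.89 (adjusted p = 0.000106) and 1.06 (adjusted p = 5.96e-05), and its 2 other probes were higher too. Bnip3, which marks mitochondria for mitophagy, gave 0.59 (adjusted p = 0.00629) and 0.71 (adjusted p = 0.00364). Bcl2l2, the anti-apoptotic BCL-W gene, gave -0.18 in EBF1-H240A (adjusted p = 0.249), but its second probe gave 0.33 (adjusted p = 0.0158), so no direction is given for it. Bcl2a1b and Bcl2a1c, near-identical copies of an anti-apoptotic gene that the probes may not separate, differed by 0.18 and 0.01 in EBF1-H240A and by 0.27 and 0.25 in EBF1wt, without passing. The EBF1-H240A arrays were far apart for both copies, at 10.65 to 11.84 for Bcl2a1b. Bcl2l12, Bcl2l13, Bnip3l and Bik did not pass in any comparison, and Bik was well above background only on the 2 Empty arrays.

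**Figure D5:**
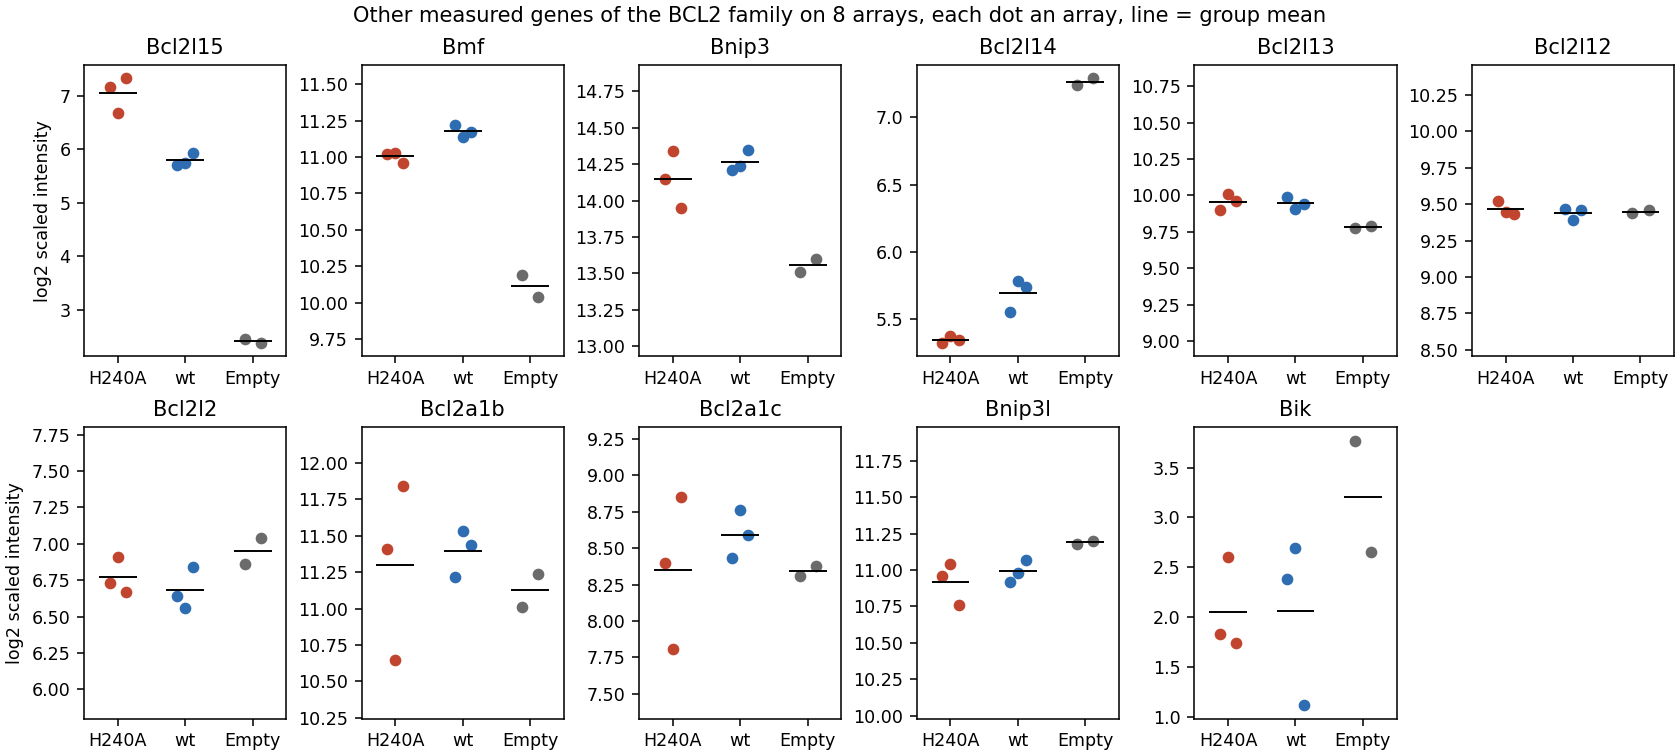
Log2 scaled intensity (y axis) of the 11 other measured family genes in EBF1-H240A, EBF1wt and Empty (x axis), each dot an array and each line a group mean. Bcl2l15 averages 7.06, 5.79 and 2.41 in these groups and Bcl2l14 5.34, 5.69 and 7.26.

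Downstream of the pores, cytochrome c and APAF1 activate caspases, which XIAP and its relatives restrain. Of 18 genes of this list, 4 were higher and 4 lower in EBF1-H240A than in Empty, and 1 higher and 4 lower in EBF1wt, beside 44.6% and 38.4% of all genes called. The median differences of the list were 0.03 and -0.02. Diablo (SMAC), which releases caspases from XIAP, gave -0.34 (adjusted p = 0.00548) and -0.32 (adjusted p = 0.00943), the EBF1wt value losing its call without Empty 1 (adjusted p = 0.064). Htra2, a mitochondrial protease that also binds XIAP, was higher by 0.61 in EBF1-H240A (adjusted p = 0.00157) and by 0.36 in EBF1wt (adjusted p = 0.0173). Its difference between EBF1-H240A and EBF1wt, 0.25, did not pass (adjusted p = 0.115). Fewer genes of the list were called in both when either Empty array was left out, as was the case over all genes. Without EBF1wt 2, 3 were called in EBF1wt in place of 5, where the number over all genes fell from 6268 to 4986.

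In the death receptor arm, where FADD recruits caspase-8 that cleaves BID, 5 of 11 genes were higher and 2 lower in EBF1-H240A than in Empty, and 3 higher and 2 lower in EBF1wt, beside 44.6% and 38.4% of all genes called. The list's median differences were 0.21 and 0.11. Fas, the receptor, averaged 9.77, 9.40 and 8.07 in EBF1-H240A, EBF1wt and Empty, a difference from Empty of 1.70 (adjusted p = 3.82e-05) and 1.34 (adjusted p = 0.000145). Casp8 was higher by 0.94 (adjusted p = 0.000308) and 0.92 (adjusted p = 0.000407). Fadd, the adaptor between them, was lower, at -0.63 (adjusted p = 0.000216) and -0.82 (adjusted p = 8.41e-05). Between EBF1-H240A and EBF1wt, 1 gene passed, beside 6.36% of all genes called. It was the TNF receptor Tnfrsf1a at 0.27 (adjusted p = 0.0294), which was not called without any 1 of the EBF1-H240A or EBF1wt arrays (adjusted p up to 0.104). Fewer genes of the list were called in EBF1-H240A without either Empty array, and in EBF1wt without Empty 2, as was the case over all genes.

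Of 16 measured p53 pathway genes, 4 were higher and 4 lower with either protein, beside 44.6% and 38.4% of all genes called in EBF1-H240A and EBF1wt. Their median differences were 0.03 and 0.04. Trp53inp1, a p53 target in stress responses, was higher by 1.40 (adjusted p = 1.66e-05) in EBF1-H240A and 1.25 (adjusted p = 3.36e-05) in EBF1wt, and Gadd45a, a growth arrest gene, by 1.84 (adjusted p = 2.74e-05) and 1.61 (adjusted p = 6.1e-05). Perp, which encodes a membrane protein of desmosomes, was lower, at -1.69 (adjusted p = 0.00017) and -2.34 (adjusted p = 5.04e-05). Perp was 0.65 higher (adjusted p = 0.0338) and Phlda3, an inhibitor of AKT, was lower at -0.52 (adjusted p = 0.0166) in EBF1-H240A than in EBF1wt. The Perp call was lost without any 1 array other than EBF1-H240A 3 (adjusted p up to 0.11), and the Phlda3 call without any EBF1wt array, EBF1-H240A 1 or EBF1-H240A 3 (adjusted p up to 0.065).

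Among 18 measured regulators known to act on BCL2 family genes, 8 were higher and 7 lower in EBF1-H240A than in Empty, and 7 higher and 6 lower in EBF1wt, beside 44.6% and 38.4% of all genes called. The median differences were 0.22 and 0.29. Mycn, a MYC family factor, averaged 9.98, 9.93 and 12.87 in EBF1-H240A, EBF1wt and Empty, a difference from Empty of -2.88 (adjusted p = 8.12e-06) and -2.94 (adjusted p = 8.79e-06). Nfkb1, which encodes the p105 and p50 NF-kB proteins, was lower by a difference of -1.44 (adjusted p = 6.89e-06) and -1.32 (adjusted p = 1.05e-05). Ddit3 (CHOP), a stress factor that in other cells lowers BCL2 and raises BIM, was higher by 1.5 (adjusted p = 3.31e-05) and 1.15 (adjusted p = 0.000137). None of the 18 passed between EBF1-H240A and EBF1wt in limma, beside 6.36% of all genes called. An unadjusted p under 0.05 was found for 6 of the 18 and for 3722 of all 16330 genes. Without EBF1wt 3, 2 of the 18 and 676 of all genes passed, and without EBF1-H240A 2, 1 and 841.

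Of 17 measured genes for turnover and partners of the proteins, 3 were higher and 3 lower in EBF1-H240A than in Empty, and 1 higher and 3 lower in EBF1wt, beside 44.6% and 38.4% of all genes called. Median differences were -0.11 and -0.14. Fbxw7, which marks MCL1 for degradation, gave -0.39 (adjusted p = 0.00303) and -0.51 (adjusted p = 0.00123). Ywhab, a 14-3-3 protein of the family that holds phosphorylated BAD, gave -0.35 (adjusted p = 0.00344) and -0.32 (adjusted p = 0.00661). Bag4 was lower in EBF1-H240A, at -0.36 (adjusted p = 0.01, or 0.0653 without Empty 1), and Vdac3, an outer membrane channel, in EBF1wt at -0.27 (adjusted p = 0.022). The Vdac3 call was lost without either Empty array, EBF1wt 2 or EBF1wt 3 (adjusted p up to 0.114). Fewer genes of the list were called in both without Empty 1, as was the case over all genes. Without EBF1-H240A 3, 3 were called in EBF1-H240A in place of 6, where the number over all genes fell from 7276 to 6344. Without EBF1wt 3, 2 were called in EBF1wt in place of 4, where the number over all genes fell from 6268 to 5469.

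For Bcl2 and Pmaip1, the 2 members whose group means ranged most widely (1.51 and 0.74 log2 units), the genes with the most similar pattern were found among 16329 genes by the root mean square difference of log2 values, each centred on its mean over the 8 arrays. Nearest to Bcl2 were Kbtbd11 (0.048), Nfkb1 (0.076) and Gprin3 (0.087). Kbtbd11 differed from Empty by -1.57 in EBF1-H240A and -1.35 in EBF1wt. Nearest to Pmaip1 were Haus4 (0.037), Rad54l (0.042) and Stil (0.046), which encode an augmin subunit, a recombination protein and a centriole protein. These distances describe likeness over 8 arrays that share their groups, and carry no test.

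Promoter windows of RefSeq (GRCm38.p6), from 250 bases before to 50 after a gene's start, were found for 9 of the 10 genes, 15 windows in all. Of motifs, 9 were searched on both strands, and 4 stretches of 250 upstream bases are shown with the match in capitals, because they carry an EBF1 core or FOXO match in genes that moved. The full EBF1 site TCCCNNGGGA was in none of the 15 windows and in 0.904% of all 32851 windows. Its core CCCNNGGG, which every full site also contains, was found in windows of Bcl2, Bcl2l1, Bid and Bbc3, and in 13.7% of all windows.
Bcl2 (chr1:106714291-106714540, minus strand): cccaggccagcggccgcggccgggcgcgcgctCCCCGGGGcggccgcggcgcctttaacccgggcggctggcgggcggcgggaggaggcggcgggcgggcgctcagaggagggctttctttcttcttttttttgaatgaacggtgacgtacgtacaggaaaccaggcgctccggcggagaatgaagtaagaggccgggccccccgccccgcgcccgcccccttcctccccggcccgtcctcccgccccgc
Bcl2l1 (chr2:152828490-152828739, minus strand): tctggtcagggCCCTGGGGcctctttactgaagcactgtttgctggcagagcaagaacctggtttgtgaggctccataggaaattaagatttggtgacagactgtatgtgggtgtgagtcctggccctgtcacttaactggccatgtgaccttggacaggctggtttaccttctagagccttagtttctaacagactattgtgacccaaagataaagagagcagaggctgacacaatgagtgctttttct
Bid (chr6:120916825-120917074, minus strand): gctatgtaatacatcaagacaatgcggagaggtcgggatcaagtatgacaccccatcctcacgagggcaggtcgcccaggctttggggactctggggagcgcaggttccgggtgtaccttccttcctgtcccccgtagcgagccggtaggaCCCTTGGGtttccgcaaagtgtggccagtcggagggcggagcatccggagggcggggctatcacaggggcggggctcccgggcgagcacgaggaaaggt

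The core lies 218 bases before the transcription start of the window shown in Bcl2, 239 in Bcl2l1 and 99 in Bid. As 9 genes have 15 windows, a gene may have other starts without a match. Bcl2 and Bid were lower with either protein and Bcl2l1 higher, so genes with this match went both ways, and Bbc3, which did not pass, has it too. The FOXO motif TGTTTAC was in windows of Bcl2l11 and Bbc3 and in 3.65% of all windows. In Bcl2l11 it lies 227 bases before the transcription start of the window shown, on the opposite strand.
Bcl2l11 (chr2:128125788-128126037, plus strand): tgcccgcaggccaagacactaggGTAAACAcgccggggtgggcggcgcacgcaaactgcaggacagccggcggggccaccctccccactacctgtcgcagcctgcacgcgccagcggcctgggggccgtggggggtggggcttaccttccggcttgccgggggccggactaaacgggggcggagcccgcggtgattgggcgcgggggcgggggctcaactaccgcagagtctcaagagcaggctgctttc

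The E-box CACGTG was in windows of Bax and Bbc3 (7.15% of all windows) and CCAAT in those of Bad, Bbc3 and Bcl2l11 (37.4%). The STAT (TTCNNNGAA, 8.3% of all windows), CRE (TGACGTCA, 1.79%), E2F (TTTCCCGC, 1.07%) and ETS (ACTTCCTG, 3.33%) motifs had no match in the 15 windows. A match describes these letters alone and is not a bound site.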

How the data were processed

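Total RNA from 8 samples was labelled with Cy3 and hybridised to one-colour Agilent arrays, and read out in Agilent Feature Extraction (version 10.5.1.1, from the submitters' processing notes). The deposited processed intensity, per the file headers, is background-subtracted and spatially detrended, on a linear scale, and probe positions are mm9. The series' deposited value table holds log2 values of unstated normalization and served only as an alternative. Intensities were scaled to a common 75th percentile, floored at 1 and put on the log2 scale; spots of a probe were averaged without outliers. Probes well above background on at least 2 arrays were kept (25034), each gene taking its brightest one. limma 3.58.1 (R 4.3.3) was fitted over all 8 arrays and 16330 genes with Benjamini-Hochberg adjustment, calling genes at 0.05; probes other than the brightest were tested in a like fit over all kept probes. The limma fit, but not the steps before it, was tested on simulated data. Leaving out arrays, slide and replicate blocks, background correction, normalization, dim-probe filters and other probes were tried as alternatives. Named genes were the 10 members with all probes, all other measured family genes, the 3 called genes with the smallest adjusted p of each pathway list and comparison, and the 3 genes nearest to the 2 most variable members. The members, gene lists and motifs were chosen with earlier results of these data known. Some genes that this rule names are not reported here. The number of arrays limits the precision.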

Additional observations from a re-analysis of the deposited data

How the results depend on the processing

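The 14 called differences of the 10 genes kept their sign in all 19 alternatives that changed the arrays, background correction, normalization, filter, blocks or value source. Some alternatives, such as leaving out arrays of the group not compared, cannot change a difference. In EBF1-H240A minus EBF1wt the call was kept in 2 of the 19 for Bcl2l11 and 3 for Pmaip1. Against Empty it was kept in 12 for Mcl1 and 11 for Bax in EBF1-H240A, and in 14 for Bax in EBF1wt. The other calls were kept in 16 to 18. The number called stayed at 4 to 5 for EBF1wt minus Empty (main value 5) and 5 to 7 for EBF1-H240A minus Empty (main value 7), other than within a slide, where 1 residual degree of freedom left 0 and 0 for EBF1wt and 1 and 0 for EBF1-H240A. For EBF1-H240A minus EBF1wt (main value 2) it was 0 with normexp background correction, with no filter on dim probes, with the deposited value table, with slide as a block, within slide 1, within slide 2 and with only the arrays of the 2 groups compared, and 1 with the mean over probes. Leaving out 1 EBF1-H240A or EBF1wt array gave 6 to 7 (EBF1-H240A minus Empty), 5 (EBF1wt minus Empty) and 0 (EBF1-H240A minus EBF1wt). The replicate block gave 5, 4 and 0 in the same order. Same-numbered arrays had correlations of -0.33 to 0.19 between their deviations from the group means. With 2 or 3 arrays per group these deviations are tied to each other, so the correlations cannot decide whether the numbers pair the samples. Bcl2l2 (EBF1-H240A minus Empty) read 0.33 with its second brightest probe in place of -0.18; that probe, and the settings for genes other than the 10, were chosen after seeing the data. Over all genes, EBF1-H240A minus EBF1wt called 1039 genes, but 338 without a filter, 650 with the value table, 647 with slide as a block, 360 with the replicate block, 366 to 841 without 1 array and 0 within either slide; within slides 1 and 2 the others called 1091 and 321 (EBF1-H240A, main value 7276) and 133 and 398 (EBF1wt, main value 6268). Signs changed between settings in 28 cases of the 10 genes and 35 of the other family genes where neither value was called. The cause of these changes was not tested.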
